A study of Homo sapiens with 6 samples.

Results

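The 9 genes MEPCE, HEXIM1, HEXIM2, LARP7, CDK9, CCNT1, CCNT2, AFF4 and ELL2 encode the proteins of the 7SK particle, the kinase P-TEFb that it holds, and 2 of the elongation factors that join the active kinase. They were found by gene name among the 22481 genes of the deposited count table, and all 9 passed the filter on low counts, as did 15387 genes in all. The genes were chosen from results in which their celastrol and control values were already known, so their differences between the groups are given as a description, with no p-value. Where a call of the fit over all genes is given for them, it describes these libraries and supports nothing. RNA came from 143B cells, an established human osteosarcoma line. In 1 plate of 6 wells, 3 wells (the celastrol group) received celastrol, a plant triterpenoid, for 24 h after a first 24 h of culture, and 3 wells (the control group) were cultured for the same 24 h without it. The dose of celastrol, and whether controls were given its solvent, are not stated in the labels. Each library is 1 well, so the spread between replicates is that of wells on a single plate and may be technical.

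P-TEFb is the cyclin-dependent kinase CDK9 bound to cyclin T1 or T2. It phosphorylates paused RNA polymerase II and its pausing factors, which lets the polymerase move into productive elongation. Much of the P-TEFb of a cell is held inactive on the noncoding 7SK RNA by HEXIM proteins, while MEPCE caps that RNA and LARP7 protects its other end. Released P-TEFb can join the super elongation complex, which AFF4 scaffolds and to which ELL2 belongs. The 7SK RNA itself lacks a poly(A) tail and was not analysed here, and transcript levels say nothing of how much P-TEFb was bound to it.

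Each library held 38408143 to 39453778 counts over 18778 to 18948 detected genes. Controls and celastrol wells lay apart on the first principal component (62.6% of variance), where celastrol replicate 2 and control replicate 1 came closest to the other group. Mitochondrially encoded genes took 4.47% to 4.68% of counts with celastrol and 5.49% to 5.82% in controls, and their part in the results was not tested. Of the bone and mesenchymal markers, VIM (1180 to 1630 FPKM, fragments per kb of gene scaled to library depth), SPARC (87.1 to 117), RUNX2 (2.99 to 6.04) and COL1A1 (1.18 to 2.52) were read in every well, and ALPL was low (0.344 to 1.24). The bone markers COL1A2, SP7 and BGLAP had at most 6 counts in any well. Of markers of other cells, the blood gene PTPRC, the epithelial CDH1 and the endothelial PECAM1 had at most 11 counts, while the epithelial EPCAM had 217 to 282. In bulk RNA, a change in the share of cells that express a gene and a change in RNA per cell cannot be told apart.

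The genes of the 7SK particle stood higher with celastrol, those of the kinase and its cyclins lay close to their control levels, and ELL2 stood lower. By edgeR's quasi-likelihood test over all 15387 genes, with Benjamini-Hochberg adjustment, 4 of the 9 genes were called higher (MEPCE, HEXIM1, HEXIM2 and LARP7) and 1 lower (ELL2), where 23.6% of all genes tested were called higher and 24.8% lower. A gene was called at an adjusted p under 0.05. Values of the 3 celastrol wells did not overlap those of the 3 control wells in 6 of the 9 genes, the same 5 and CCNT2, against 56.9% of all genes. Since the genes were chosen on this contrast, nothing is read from these counts. The 9 log2 differences between celastrol and control ran from -1.08 to 1.43 with a median of 0.17, while the median over all genes tested was -0.000237.

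**Figure D1:**
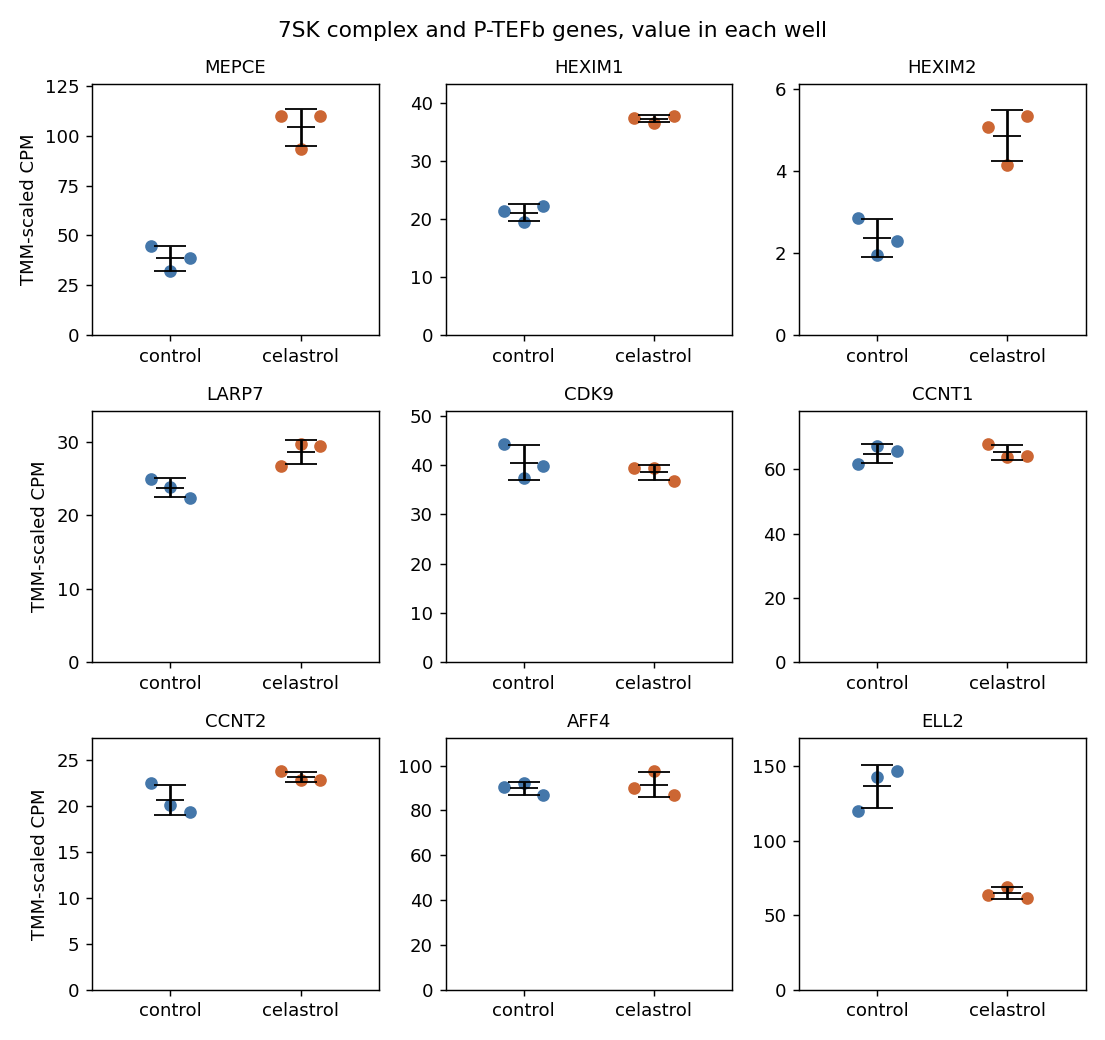
TMM-scaled CPM (counts scaled to library depth, y axis from 0) of the 9 genes in each well, with the mean and SD of the 3 control and 3 celastrol wells in black. MEPCE, HEXIM1, HEXIM2, LARP7 and CCNT2 lie higher in every celastrol well than in any control well and ELL2 lies lower, while the wells of CDK9, CCNT1 and AFF4 overlap.

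MEPCE encodes the methyltransferase that caps the 5′ end of 7SK (NCBI gene 56257, chromosome 7, 100428790 to 100434118, plus strand). It had 109.6, 93.28 and 109.6 CPM (counts scaled to library depth with TMM factors) in celastrol replicates 1, 2 and 3, and 44.75, 32.41 and 38.62 CPM in control replicates 1, 2 and 3. Every celastrol well was above every control well, with the nearest pair being celastrol replicate 2 and control replicate 1. The means were 104.2 ± 9.42 and 38.59 ± 6.17 CPM (SD, n = 3), a 2.7-fold difference and the largest of the 9 (log2 difference 1.43 ± 0.10 SE). Of all genes tested, 98.3% had a smaller log2 difference. MEPCE shares 5.94% of its exon bases with ZCWPW1 on the opposite strand. ZCWPW1 had 171 to 352 counts per library against 1231 to 4403 for MEPCE, and itself rose (log2 difference 0.60 ± 0.17 SE, adjusted p = 0.00608 by edgeR).

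LARP7 encodes the La-related protein that binds the 3′ end of 7SK and keeps it stable (gene 51574, chromosome 4, 112637143 to 112657586, plus strand). Its values were 26.74, 29.72 and 29.42 CPM in celastrol replicates 1, 2 and 3 and 24.97, 23.77 and 22.39 CPM in control replicates 1, 2 and 3. The groups did not overlap, but celastrol replicate 1 lay close to control replicate 1. The fold difference was 1.21, from 23.71 ± 1.29 to 28.63 ± 1.64 CPM (log2 difference 0.27 ± 0.096 SE). LARP7 was no longer called without celastrol replicate 2 or 3, or without control replicate 2 or 3, where its log2 difference was 0.24, 0.25, 0.27 and 0.23. LARP7 shares 7.4% of its exon bases with an antisense gene not found by name in the count table. It shares 0.784% with ZGRF1 on the opposite strand. ZGRF1 had 673 to 1021 counts per library against 862 to 1174 for LARP7, and itself rose (0.38 ± 0.10 SE, adjusted p = 0.0056 by edgeR).

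HEXIM1 encodes the main inhibitor that, once bound to 7SK, blocks the kinase of P-TEFb (gene 10614, chromosome 17, 45148475 to 45152099, plus strand), and it is annotated with 1 exon. It had 37.49, 36.55 and 37.67 CPM in celastrol replicates 1, 2 and 3, and 21.41, 19.51 and 22.34 CPM in control replicates 1, 2 and 3. The 3 celastrol wells lay close together, well above the highest control. The coefficient of variation was 1.61% with celastrol and 6.84% in controls, while counting error alone would give 2.6% and 3.52%. HEXIM1 was thus 1.77-fold higher, at 37.24 ± 0.6 against 21.09 ± 1.44 CPM (log2 difference 0.82 ± 0.092 SE).

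HEXIM2 encodes a paralog that can take the place of HEXIM1 on 7SK (gene 124790, chromosome 17, 45160174 to 45170040, plus strand), and it starts 8074 bases beyond the end of HEXIM1 on the same strand. It was the least abundant of the 9 genes, with only 74 to 110 counts in a control well and 164 to 210 in a celastrol well. Celastrol replicates 1, 2 and 3 had 5.079, 4.151 and 5.327 CPM, control replicates 1, 2 and 3 had 2.859, 1.948 and 2.286 CPM, and the groups did not overlap. The fold difference was 2.05 (log2 difference 1.04 ± 0.22 SE), with the widest error of the 9. On log2(FPKM + 1), a scale that shrinks low genes, the log2 difference was 0.58. In GENCODE release 29, an antisense gene on the opposite strand shares 50.3% of the exon bases of HEXIM2, and the sources do not say how counting treated strand, although the library kit marks it with dUTP. Its place in the count table was found by RefSeq coordinates, where LOC105371795 covers 96.3% of that antisense gene, and it had 0 to 8 counts per library. HEXIM2-AS1, which covers 100% of the antisense gene that shares 14.4% of the exon bases of HEXIM1, had 8 to 19.

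Promoter windows of RefSeq (GRCh38.p14, 250 bases before to 50 after a transcript start) were at hand for 8 of the 9 genes. Those of HEXIM1, HEXIM2 and MEPCE are shown because these 3 genes had the largest differences above 0. For HEXIM2 the window shown is that of 2 in which a searched motif was found, while the one at the start of the gene held 0. For MEPCE, which has 3 windows, the one at the start of the gene is shown. Each is written 5′ to 3′ on the plus strand, and capitals mark the motifs searched on both strands.
HEXIM1, chr17:45148225-45148524: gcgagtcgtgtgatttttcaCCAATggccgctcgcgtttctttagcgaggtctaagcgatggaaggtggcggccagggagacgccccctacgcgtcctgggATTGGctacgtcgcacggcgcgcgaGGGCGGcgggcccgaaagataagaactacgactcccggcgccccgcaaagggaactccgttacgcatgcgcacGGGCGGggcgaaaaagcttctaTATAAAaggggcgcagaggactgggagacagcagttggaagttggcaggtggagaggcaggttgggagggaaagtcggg
HEXIM2, chr17:45161625-45161924: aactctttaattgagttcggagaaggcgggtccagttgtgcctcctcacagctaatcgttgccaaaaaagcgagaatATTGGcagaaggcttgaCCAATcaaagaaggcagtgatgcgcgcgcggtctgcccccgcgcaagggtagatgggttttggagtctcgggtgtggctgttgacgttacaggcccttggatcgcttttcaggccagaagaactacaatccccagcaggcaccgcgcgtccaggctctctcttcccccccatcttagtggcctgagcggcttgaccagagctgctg
MEPCE, chr7:100428540-100428839: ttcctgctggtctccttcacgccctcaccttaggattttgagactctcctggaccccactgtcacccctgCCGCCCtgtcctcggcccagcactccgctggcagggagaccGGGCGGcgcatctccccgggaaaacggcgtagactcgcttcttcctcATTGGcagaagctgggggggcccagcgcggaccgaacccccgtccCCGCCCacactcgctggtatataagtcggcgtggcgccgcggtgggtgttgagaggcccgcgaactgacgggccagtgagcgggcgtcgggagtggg

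Positions are counted from the transcript start, with bases before it negative. The exact letters TATAAA, one form of the TATA box, begin at -29 in HEXIM1 and occur in no window of the other 7 genes. They occur in 11.5% of all 35116 windows, and in a window of 14.0% of the 27305 genes with windows. Other forms of the TATA box were not searched, and the MEPCE window shown holds the similar letters tatataag. The letters CCAAT, in either direction, occur at -230 and -149 in HEXIM1, at -173 and -156 in HEXIM2, and at -92 in MEPCE. They also occur in windows of LARP7, CCNT1 and CCNT2, in 34.6% of all windows and in a window of 39.7% of genes. The GC box GGGCGG occurs at -124 and -51 in HEXIM1 and at 3 places in the MEPCE window shown. Windows of LARP7, CDK9, CCNT1, CCNT2 and AFF4 hold it as well. It is not in the HEXIM2 window, while 45% of all windows and 48.3% of genes hold it. The E-box CACGTG (7.26% of all windows, 8.77% of genes) was found for AFF4, CCNT1 and another start of MEPCE. No window of these genes held the AP-1 letters TGANTCA (7.71% of all windows, 9.37% of genes). None held the inner letters GAANNTTC of a heat shock element (6.77% of all windows, 8.21% of genes). These matches describe the letters of the windows and show no binding.

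CDK9 encodes the kinase of P-TEFb (gene 1025, chromosome 9, 127786034 to 127790792, plus strand). It had 39.49, 39.39 and 36.83 CPM in celastrol replicates 1, 2 and 3 and 44.36, 37.46 and 39.74 CPM in control replicates 1, 2 and 3. The lowest well was a celastrol well and the highest a control well, but the groups overlapped, and the log2 difference was -0.07 ± 0.088 SE. CCNT1 encodes cyclin T1, the usual partner of CDK9 (gene 904, chromosome 12, 48688458 to 48716707, minus strand). Its values were 67.94, 63.66 and 64.07 CPM with celastrol and 61.49, 67.19 and 65.73 CPM in controls, the smallest difference of the 9 in size (0.0094 ± 0.073 SE). This sign was below 0 in 4 of 16 alternative settings.

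CCNT2 encodes cyclin T2, the alternative partner of the kinase (gene 905, chromosome 2, 134918822 to 134959342, plus strand). It had 23.78, 22.81 and 22.8 CPM with celastrol and 22.45, 20.04 and 19.35 CPM in controls. The groups did not overlap, with control replicate 1 just below the nearest celastrol well, yet CCNT2 was not called (log2 difference 0.17 ± 0.10 SE). The kinase and its cyclins therefore had log2 differences between -0.07 and 0.17, against 0.27 to 1.43 for the genes of the 7SK particle and its inhibitors. The 2 ranges are not clearly apart where they meet, at CCNT2 (0.17 ± 0.10 SE) and LARP7 (0.27 ± 0.096 SE). Over the alternative settings CCNT2 ran from 0.122 to 0.242 and LARP7 from 0.231 to 0.316, which overlap only between different settings. Within each setting LARP7 was above CCNT2, nearest without celastrol replicate 2 and control replicate 1 (0.282 and 0.242).

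AFF4 encodes the scaffold of the super elongation complex, which binds the cyclin T and ELL subunits (gene 27125, chromosome 5, 132875395 to 132963634, minus strand). It had 89.93, 97.71 and 86.9 CPM with celastrol and 90.38, 92.23 and 86.82 CPM in controls. The groups overlapped almost fully, at a log2 difference of 0.03 ± 0.069 SE, whose sign was below 0 in 2 of 16 settings. ELL2 encodes an elongation factor of that complex that raises the rate of polymerase II (gene 22936, chromosome 5, 95885098 to 95961851, minus strand). It had 63.26, 69.08 and 61.41 CPM in celastrol replicates 1, 2 and 3, and 120.1, 142.8 and 146.9 CPM in control replicates 1, 2 and 3. Every celastrol well was far below every control well, and ELL2 was 2.12-fold lower with celastrol, from 136.6 ± 14.4 to 64.58 ± 4 CPM (log2 difference -1.08 ± 0.080 SE). It had the only called fall of the 9, and 6.23% of all genes tested had a lower difference.

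**Figure D2:**
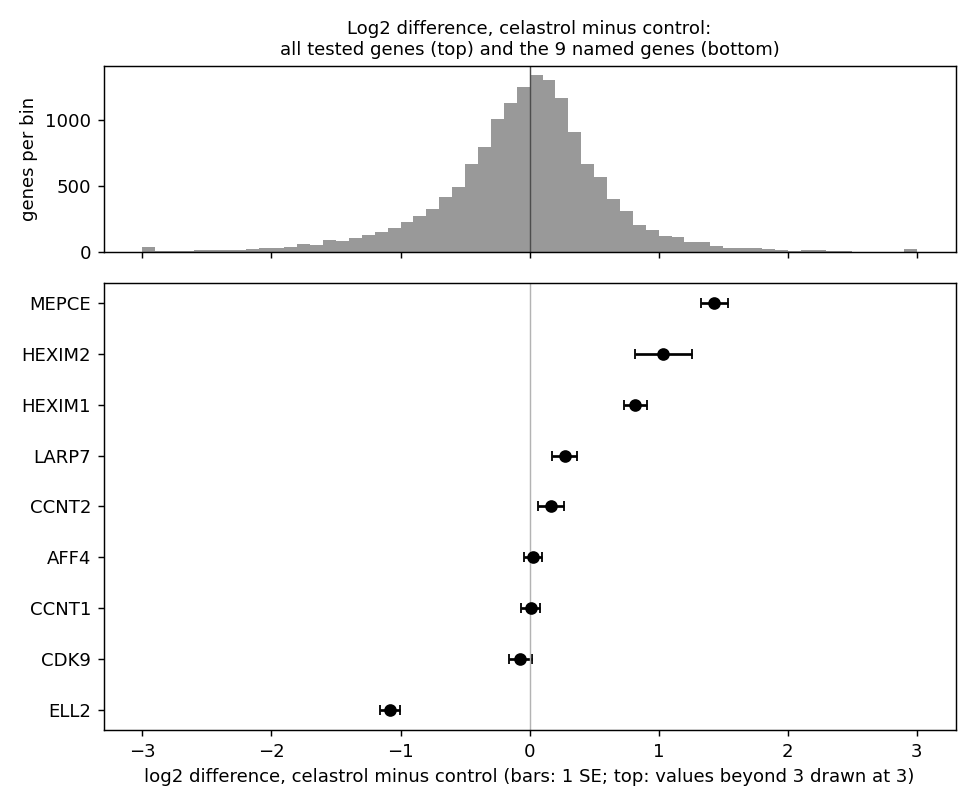
Log2 difference (x axis, celastrol minus control) of all 15387 genes tested, as a histogram (top), and of the 9 genes with 1 SE (bottom). MEPCE, HEXIM2 and HEXIM1 stand at 1.43, 1.04 and 0.82, ELL2 at -1.08, and CDK9, CCNT1 and AFF4 between -0.07 and 0.03.

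Levels were compared between genes only per length, in FPKM. In control wells ELL2 (17.73 ± 1.79 FPKM) and CDK9 (16.08 ± 1.44) were highest, and their ranges over the 3 wells overlapped. MEPCE followed at 12.11 ± 1.95 FPKM. CCNT1 (9.302 ± 0.408) and AFF4 (8.926 ± 0.333) overlapped each other. LARP7 (6.492 ± 0.398) and HEXIM1 (5.73 ± 0.364) came next, with ranges that did not overlap but nearly touched. CCNT2 (1.932 ± 0.164) and HEXIM2 (0.7922 ± 0.156) were lowest.

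With celastrol the order of levels per length differed. MEPCE was first at 33.64 ± 3 FPKM, above CDK9 at 15.75 ± 0.692. HEXIM1 had rank 3 at 10.42 ± 0.152, against rank 7 in controls. ELL2 had rank 6 at 8.632 ± 0.559, and its range overlapped those of its neighbours AFF4 (9.36 ± 0.597) and LARP7 (8.063 ± 0.44). CCNT2 (2.231 ± 0.0623) and HEXIM2 (1.673 ± 0.21) again had ranks 8 and 9.

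**Figure D3:**
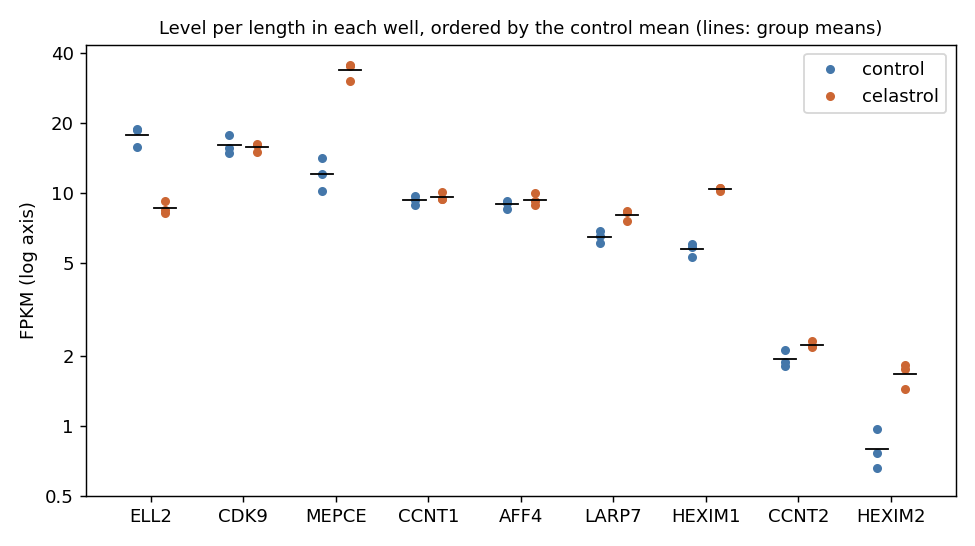
FPKM on a log axis of the 9 genes in each well, ordered by the control mean, with control wells left and celastrol wells right and lines at the group means. MEPCE goes from 12.11 to 33.64 FPKM and HEXIM1 from 5.73 to 10.42, while ELL2 goes from 17.73 to 8.632.

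A ratio of 2 genes within a well does not depend on how libraries are scaled. The ratios that follow hold genes chosen on this contrast, so nothing is read from whether they separate the groups. HEXIM1 stood at 5.99, 7.14 and 5.74 times the FPKM of HEXIM2 in celastrol replicates 1, 2 and 3 and at 6.08, 8.12 and 7.93 times in control replicates 1, 2 and 3. The ranges of the 2 groups overlapped. The ratio of CCNT1 to CCNT2 was 4.28 to 4.38 with celastrol and 4.2, 5.14 and 5.2 in controls, which overlapped through control replicate 1. ELL2 to its paralog ELL was 0.962, 1.25 and 0.976 with celastrol against 1.85, 1.91 and 1.91 in controls, and those groups lay apart. AFF4 to its paralog AFF1 was 2.58, 2.64 and 2.44 with celastrol and 2.29, 2.1 and 1.9 in controls, which also did not overlap. AFF4 itself hardly differed (log2 difference 0.03), while AFF1 fell from 47.63 ± 3.62 to 39.65 ± 1.21 CPM (-0.26 ± 0.084 SE, adjusted p = 0.0144 by edgeR).

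Ratios across roles were added after the values were seen. The summed FPKM of HEXIM1 and HEXIM2 was 0.993, 1 and 1.06 times that of CCNT1 and CCNT2 in celastrol replicates 1, 2 and 3, and 0.62, 0.517 and 0.608 times in control replicates 1, 2 and 3. Inhibitor transcripts thus went from fewer than cyclin T transcripts to about as many, per length. The ratio of HEXIM1 to CDK9 was 0.65, 0.636 and 0.701 with celastrol and 0.331, 0.357 and 0.385 in controls. MEPCE to LARP7, the pair that coats 7SK, was 4.7, 3.6 and 4.27 against 2.05, 1.56 and 1.98. ELL2 to its scaffold AFF4 was 0.919, 0.924 and 0.923 against 1.74, 2.02 and 2.21. In all 4 of these ratios the groups lay apart. They were formed from genes chosen on this contrast, so nothing is read from that separation.

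**Figure D4:**
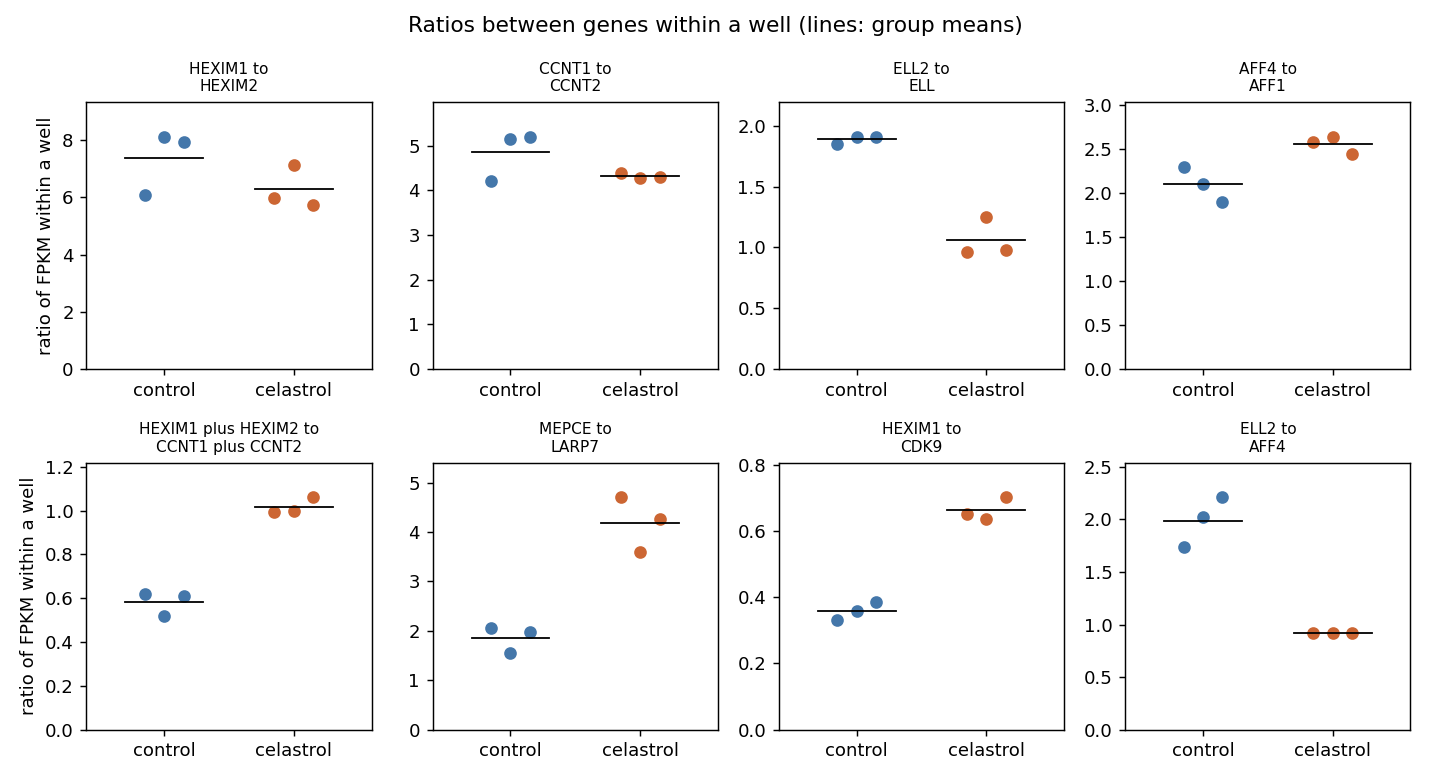
Ratio of FPKM within a well (y axes from 0) for 8 pairs of genes or sums, with lines at the means of 3 wells. The ratio of HEXIM1 plus HEXIM2 to CCNT1 plus CCNT2 has a mean of 0.582 in controls and 1.02 with celastrol, while HEXIM1 to HEXIM2 overlaps between groups.

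The genes whose pattern was most like that of MEPCE, and of ELL2, were sought among 8620 other genes with a mean log2 CPM of at least 4. Likeness was the distance between centred log2 CPM values over the 6 libraries. Nearest to MEPCE were FAM217B (distance 0.146), the cystine carrier gene SLC7A11 (0.168) and the glycosyltransferase gene B3GALT6 (0.181), with log2 differences of 1.35, 1.56 and 1.48. Nearest to ELL2 were the kinase gene PRKCD (0.0668), the GTPase gene RAC2 (0.0961) and the antigen-presenting gene HLA-B (0.115), with -1.13, -1.07 and -1.03. Their likeness is set mostly by the difference between the 2 groups, and it is a description. HLA-B shares 17.8% of its exon bases with a pseudogene on the opposite strand.

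The terms written in the deposited table group these genes by role. Of 8 genes with the term for 7SK RNA binding, 7 are among the 9, and the other is the helicase gene DDX21, which rose (351.7 ± 11.2 to 397.9 ± 8.14 CPM, adjusted p = 0.0115 by edgeR). All 3 genes with the term for the 7SK particle (MEPCE, HEXIM1 and LARP7) and both with the term for P-TEFb (CDK9 and CCNT1) are among the 9. The term for the cyclin and kinase elongation complex adds CCNK, CDK12 and CDK13. CDK12 and CDK13, kinases that phosphorylate the polymerase II tail later in a gene, rose (log2 differences 0.32 and 0.22, adjusted p = 0.000957 and 0.0329), and their cyclin CCNK was at 0.06 (adjusted p = 0.468).

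Around the 9 genes, 87 other genes of polymerase II elongation, in 7 lists by role, were tested in the same edgeR fit with adjustment over all 15387 genes. Of the 87, 36 rose and 15 fell, so 58.6% were called, where 48.4% of all genes tested were called (23.6% higher and 24.8% lower, the background for each list that follows). Their median log2 difference was 0.15 against -0.000237 over all genes. The share called depends on expression: of the 10023 genes with at least 10 CPM in 3 libraries, fitted alone, 57.7% were called. In that fit 32 of the listed genes were higher and 16 lower. With limma applied to log2(FPKM + 0.1) the split was 40 higher and 9 lower, so 81.6% of calls were higher against 70.6% by edgeR. Over all genes the share of calls that were higher moved as well, from 48.8% by edgeR to 55.3%. No test compares these lists with other genes.

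Of 15 partners in the super elongation complex and bromodomain proteins, 2 rose and 6 fell (median log2 difference -0.07). The scaffold gene AFF2 fell from 6.502 ± 1.03 to 2.914 ± 1.26 CPM (-1.16 ± 0.26 SE, adjusted p = 0.00133). MLLT3, which encodes the chromatin reader AF9, fell from 29.87 ± 1.87 to 18.31 ± 1.53 CPM (-0.71 ± 0.10, adjusted p = 2.08e-05). Its paralog MLLT1, which encodes ENL, rose from 67.02 ± 6.1 to 81.84 ± 5.61 CPM (0.29 ± 0.080, adjusted p = 0.00617). ICE1, of the little elongation complex, rose as well (0.19 ± 0.062, adjusted p = 0.0146). The call of MLLT1 was lost without celastrol replicate 3, where its adjusted p by edgeR was 0.0508, the highest of 16 alternatives (lowest 4.84e-05). That of ICE1 was lost without celastrol replicate 2 (0.0826, lowest 0.00409), also when control replicate 1 was left out with it (0.0588). The number lower was 3 without control replicate 3 and 3 or 2 by limma on log2 FPKM, and 1 rather than 2 was higher without celastrol replicate 2 or 3.

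P-TEFb acts on the pausing factors NELF and DSIF, and of their 6 genes 2 rose and 1 fell. Those that rose were both of DSIF, SUPT5H (0.22 ± 0.063 SE, adjusted p = 0.00692) and SUPT4H1 (0.50 ± 0.082, adjusted p = 7.48e-05). The one that fell was NELFA, of NELF, from 57.99 ± 2.4 to 44.49 ± 2.28 CPM (-0.38 ± 0.078, adjusted p = 0.000587). SUPT5H was not called without celastrol replicate 1 (adjusted p = 0.0613, the highest of 16 alternatives, with 0.000766 the lowest). SUPT4H1 shares 63.7% of its exon bases with an annotated gene on the same strand and is uncertain.

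Of 15 genes of the PAF complex and other elongation factors, 7 rose and 2 fell. SUPT6H, which encodes a histone chaperone that travels with the polymerase, rose from 99.03 ± 8.79 to 145.8 ± 4.72 CPM (0.56 ± 0.071 SE, adjusted p = 4.92e-06). CTR9, a subunit of the PAF complex, rose by 0.31 ± 0.065 (adjusted p = 0.000761). TCEA2, a cleavage factor that rescues stalled polymerase, fell from 55.14 ± 5.8 to 37.41 ± 1.98 CPM (-0.56 ± 0.089, adjusted p = 5.28e-05), and IWS1, a partner of SUPT6H, fell too (-0.29 ± 0.080, adjusted p = 0.00607). Without celastrol replicate 3 only 3 rose, and without control replicate 2 only 4.

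Of 15 genes of other kinases and phosphatases that act on the polymerase tail, 6 rose and 3 fell. CTDSP1, a small tail phosphatase, had 127.8, 119.5 and 129.2 CPM in celastrol replicates 1, 2 and 3 and 68.06, 44.2 and 42.46 CPM in control replicates 1, 2 and 3 (1.28 ± 0.18 SE, adjusted p = 0.00132). That rise was the largest in size among the 87 genes. The tail phosphatase gene RPAP2 rose by 0.51 ± 0.11 (adjusted p = 0.000761). CCNH (-0.45 ± 0.085, adjusted p = 0.000251) and MNAT1 (-0.44 ± 0.093, adjusted p = 0.000785), the cyclin and assembly factor of the initiation kinase CDK7, fell, with CDK7 itself at -0.17 (adjusted p = 0.222). CCNH shares 12.7% of its exon bases with RASA1 on the opposite strand.

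Of 9 genes of proteins that bind 7SK or release P-TEFb from it, 6 rose and 0 fell by edgeR (before adjustment 1 was lower at p under 0.05, and neither DESeq2 nor limma-voom called any). SRSF2, a splicing factor that 7SK tethers at promoters, rose from 133.4 ± 28.2 to 210.1 ± 2.77 CPM (0.66 ± 0.12 SE, adjusted p = 0.00175). It shares 36.7% of its exon bases with MFSD11 on the opposite strand, which itself rose from 13.18 ± 0.74 to 19.84 ± 1.43 CPM (adjusted p = 0.000391). SYNCRIP, an RNA-binding protein also called hnRNP Q, rose from 197.8 ± 15.2 to 251.3 ± 9.65 CPM (0.35 ± 0.065, adjusted p = 0.000269). PPM1G, a phosphatase that releases P-TEFb, was at -0.14 (adjusted p = 0.0905). With the replicate block, with at least 10 CPM required in 3 libraries, or without control replicate 1 (alone or with celastrol replicate 2), 1 gene of the list was lower.

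Of the 13 polymerase II subunit genes, 8 rose and 0 fell by edgeR (before adjustment 0 were lower at p under 0.05, and DESeq2 and limma-voom also called 0). POLR2L rose from 60.5 ± 7 to 96.35 ± 8.3 CPM (0.67 ± 0.087 SE, adjusted p = 6.72e-06) and POLR2C from 77.77 ± 5.26 to 106.2 ± 7.18 CPM (0.45 ± 0.074, adjusted p = 7.14e-05). POLR2A, the large subunit that carries the tail, was at -0.12 (adjusted p = 0.208). POLR2L shares 22.5% of its exon bases with CD151 on the opposite strand, which fell (-0.24, adjusted p = 0.00244 by edgeR). The number that rose was 4 without celastrol replicate 1 and 5 without celastrol replicate 3 or control replicate 2.

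Integrator cleaves nascent RNA at paused polymerase, and of its 14 genes 5 rose and 3 fell. INTS7 rose from 24.85 ± 3.55 to 52.6 ± 4.95 CPM (1.08 ± 0.10 SE, adjusted p = 2.83e-07) and INTS5 from 16.95 ± 3.79 to 28.77 ± 1.16 CPM (0.76 ± 0.13, adjusted p = 0.000129). INTS8 fell from 76.26 ± 2.64 to 55.65 ± 7.12 CPM (-0.45 ± 0.086, adjusted p = 0.00029) and shares 20.7% of its exon bases with CCNE2 on the opposite strand. INTS12 fell too (-0.39 ± 0.13, adjusted p = 0.0161), a call lost in 6 of 16 alternatives (range 4.52e-05 to 0.0905). Of those 6, 2 were limma on log2 FPKM, and the others left out celastrol replicate 1 (0.0642) or 3 (0.0618) or control replicate 2 (0.0905) or 3 (0.0843). INTS12 shares 13.2% of its exon bases with ARHGEF38 on the opposite strand.

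**Figure D5:**
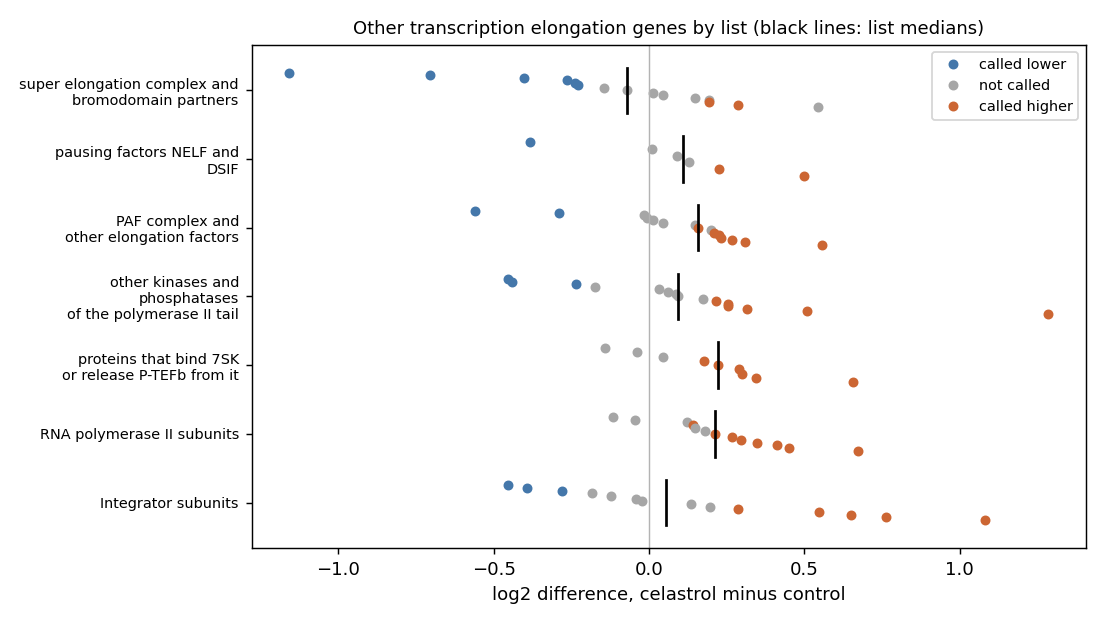
Log2 difference (x axis, celastrol minus control) of the 87 other elongation genes in 7 lists, each point a gene coloured by its edgeR call, with black lines at list medians. The polymerase II subunits and the 7SK-binding proteins hold 8 and 6 genes called higher and 0 called lower, while the super elongation complex list holds 2 higher and 6 lower.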

How the data were processed

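The 6 libraries are poly(A) RNA-seq of wells, read over 150 bp from both ends, per the labels' protocols. HISAT2 2.2.1, cutadapt 1.9, edgeR, DESeq2 and StringTie 2.1.6, and the build hg38, are named per the submitters' processing notes. Not given in the sources used here are their roles, the annotation and the strand setting of counting. The deposited tables hold raw counts (whole numbers) and FPKM values by the authors, which hold 1 gene length per gene in all 20198 genes with counts in 2 or more libraries (within 1e-06).

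Counts were filtered with filterByExpr, scaled by TMM and tested with edgeR 4.0.16 (R 4.3.3; quasi-likelihood, robust), with Benjamini-Hochberg adjustment over 15387 genes, after the script was tested on simulated data. SE is the absolute log2 difference over the square root of F. FPKM served for levels per length, for ratios and, in limma 3.58.1, as an alternative. DESeq2 1.42.0, other scalings and filters, the replicate block and leaving out wells were the other alternatives. The members and lists were chosen with earlier results of these data known. Named besides the 9 genes were up to 2 called genes per direction in each list (mean log2 CPM of at least 2) and the 3 genes most like the largest rise and fall; other genes of a list were chosen after their values were seen. Gene positions are RefSeq's on GRCh38.p14 (all 9 genes matched by NCBI gene ID), exon overlaps GENCODE release 29's.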

Additional observations from a re-analysis of the deposited data

How the results depend on the processing

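Over 16 alternatives (15 for HEXIM2, which the filter of at least 10 CPM in 3 libraries removed), MEPCE, HEXIM1, HEXIM2 and ELL2 had log2 differences of 1.32 to 1.62, 0.764 to 0.863, 0.577 to 1.3 and -1.22 to -0.957. Since the genes were chosen on this contrast in these wells, their calls under the alternatives are no sign of stability. The lowest value of HEXIM2, 0.577, came from log2(FPKM + 1), a scale that shrinks low values. LARP7 ran from 0.231 to 0.316 and was called in 12 of 16. CDK9, CCNT1, CCNT2 and AFF4 were called in none of the 16. Over the 87 other genes, 9 were lower by limma on log2(FPKM + 0.1), against 15, and the cause was not tested. Levels per length in control wells kept their values within 1 SD with TMM-scaled counts per kb in place of FPKM. Gene lengths for this were taken from the FPKM values themselves, so only the scaling of libraries could differ, and the lengths were not checked. Deviations of same-numbered wells had weak positive correlations (0.0582, 0.0549 and 0.0341), and each well correlated best with its own number. With the replicate block, 3831 genes were higher and 3928 lower, against 3634 and 3815 without it. The members' calls did not change with the block (4 higher, 1 lower). With library size alone the median of all genes moved to 0.0411. Without both celastrol replicate 2 and control replicate 1, the wells nearest the other group, 4 of the 9 genes were higher and 1 lower, with MEPCE at 1.62. A count of 0 allows up to 3 counts, for counting error only.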
